A study of Mus musculus with 48 samples.

Results

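The genes described here are 47 genes of the G2 phase and of mitosis, found by symbol in the count tables among 54735 genes, followed through 48 RNA-seq libraries of mouse liver macrophages. All 47 were present and all passed the filter on low counts. The libraries came from male C57BL/6 mice, and no other genetic change is given in the labels. Kupffer cells (KCs), macrophages that live in the liver sinusoids, were collected 6, 12, 24, 36, 48, 72, 96, 120 and 168 h after acetaminophen (APAP), a drug that kills hepatocytes at high dose, with 4 libraries at each time. Control KCs came from mice given phosphate-buffered saline (PBS), with 2 libraries at 0 h and 2 at 24 h, so there is no PBS control at the later times. A second population, LAM-like KCs, named for lipid-associated macrophages, was collected at 36 and 48 h after APAP, with 4 libraries at each time. The dose of APAP, the age of the mice and the criterion that separated LAM-like KCs from KCs are not given in the sources used here. Nor do the labels say whether the libraries came from separate animals, so p-values measure the spread between libraries, which may be technical.

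Kupffer cells can renew themselves by division within the liver, and cell division runs through DNA replication (S phase), a second gap phase (G2) and mitosis. Entry into mitosis depends on the kinase CDK1 and its partners, the cyclins A2, B1 and B2, while FOXM1 and the MuvB complex switch on the late genes of the cycle, in large part through a short promoter element called the cell cycle genes homology region (CHR) and nearby CCAAT boxes. Chromosomes then attach to the spindle through kinetochores, and the anaphase-promoting complex with its activator CDC20 ends mitosis by marking cyclin B for destruction.

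Promoters of 5 members, picked from near the ends of the order of change from 36 to 48 h, are printed. Cdk1 fell and Cdc20, Cenpa and Ccnb2 rose in KCs, and the lower level of Spc25 at 48 h was not called (log2 change -1.09 ± 0.44, adjusted p = 0.107). The sequences are those of RefSeq on GRCm38.p6, from 250 bases before to 50 after the annotated start, read 5′ to 3′ on the strand of the gene. Capitals mark the CHR (TTTGAA or TTCGAA) and the CCAAT box (CCAAT) on either strand, so a CCAAT box on the other strand reads ATTGG, and no matches of the motifs overlap in these windows.
Cdk1 (chr10:69352863-69353162, minus strand): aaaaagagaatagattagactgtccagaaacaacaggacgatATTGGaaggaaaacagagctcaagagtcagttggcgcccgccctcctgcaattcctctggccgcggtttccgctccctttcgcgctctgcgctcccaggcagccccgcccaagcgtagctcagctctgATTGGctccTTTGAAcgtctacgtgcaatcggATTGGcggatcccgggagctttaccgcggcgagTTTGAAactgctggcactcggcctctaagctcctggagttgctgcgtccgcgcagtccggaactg
Spc25 (chr2:69206164-69206463, minus strand): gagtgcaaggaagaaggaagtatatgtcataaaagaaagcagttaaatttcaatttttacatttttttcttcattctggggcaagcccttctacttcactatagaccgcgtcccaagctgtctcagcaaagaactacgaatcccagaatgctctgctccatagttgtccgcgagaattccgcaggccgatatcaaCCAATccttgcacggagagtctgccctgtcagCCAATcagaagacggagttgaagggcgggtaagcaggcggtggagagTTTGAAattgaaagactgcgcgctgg
Cdc20 (chr4:118437294-118437593, minus strand): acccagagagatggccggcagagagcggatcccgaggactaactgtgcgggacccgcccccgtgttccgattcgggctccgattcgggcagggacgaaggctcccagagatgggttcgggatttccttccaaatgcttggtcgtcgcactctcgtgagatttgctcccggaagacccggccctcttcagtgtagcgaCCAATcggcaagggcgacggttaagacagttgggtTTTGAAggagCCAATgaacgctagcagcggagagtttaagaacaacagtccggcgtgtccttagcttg
Cenpa (chr5:30666636-30666935, plus strand): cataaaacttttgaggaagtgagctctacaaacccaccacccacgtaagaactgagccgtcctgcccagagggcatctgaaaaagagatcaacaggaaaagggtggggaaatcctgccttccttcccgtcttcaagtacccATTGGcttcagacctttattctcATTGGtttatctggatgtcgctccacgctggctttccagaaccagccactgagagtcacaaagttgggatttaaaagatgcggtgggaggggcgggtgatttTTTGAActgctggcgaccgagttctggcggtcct
Ccnb2 (chr9:70421505-70421804, minus strand): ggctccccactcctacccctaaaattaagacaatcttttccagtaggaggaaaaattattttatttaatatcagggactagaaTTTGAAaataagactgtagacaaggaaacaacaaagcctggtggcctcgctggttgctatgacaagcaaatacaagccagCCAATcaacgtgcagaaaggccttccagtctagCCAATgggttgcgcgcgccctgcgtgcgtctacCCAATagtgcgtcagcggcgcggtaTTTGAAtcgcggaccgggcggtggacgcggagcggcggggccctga
All 5 windows held both motifs. Other members near the ends of the order did not. The windows of Mad2l1, beside Cdk1 in the order, and of Knstrn, beside Cdc20, held neither motif. Among the 38 members with a window in the RefSeq table, 30 (78.9%) held a CHR, against 19.4% of 27025 promoters of the same length. A CCAAT box was found in 28 (73.7%), against 37.9%, and both motifs in 26 (68.4%), against 7.7%. A match is a match of letters and does not show that a factor binds there.

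Libraries held 15885336 to 26058698 counted reads. A list of 8 Kupffer cell markers, among them Clec4f, Timd4 and Vsig4, summed to between 18462 and 47955 CPM (counts scaled to a common library size, with TMM factors) in each library, with every marker detected in every group. The file headers number the libraries in a run, which was divided here after number 25 into 25 libraries called set 1, for the most part replicates 1 and 2, and 23 called set 2. The headers give these numbers no meaning. Both PBS 24 h libraries are in set 1 and both PBS 0 h libraries in set 2, so that a comparison with PBS within 1 set also has another control. In the GENCODE annotation 18 members, such as Ccna2, Cdc20 and Kif20a, share bases with an opposite-strand gene, and 8 share bases with a same-strand gene. Whether reads were counted by strand is not stated, so part of their counts may belong to the neighbour.

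The mitotic genes rose together between 24 and 36 h after APAP, stayed high at 48 h and had largely fallen by 72 h. The summed level of the 47 members was 775 and 349 CPM in the PBS libraries of 0 h and 286 and 203 CPM in those of 24 h, or 403 ± 255 (SD, n = 4) over all of them. It was 2299, 2065, 2220 and 2710 CPM in KCs at 36 h, and 3043, 2431, 1934 and 1796 CPM at 48 h. Every library of both times lay above every PBS library, and the mean at 36 h, 2323 ± 275 (SD, n = 4) CPM, was 5.76 times the PBS mean. LAM-like KCs held 2068, 1973, 2955 and 2903 CPM at 36 h and 2820, 2543, 2428 and 1924 CPM at 48 h, a range that overlaps that of KCs at both times. At 72 h KCs held 996, 851, 455 and 277 CPM. In a bulk library, fewer dividing cells and less of these RNAs per cell cannot be told apart. The Kupffer cell marker list was at 26627 to 27782 CPM at 36 h and at 36167 to 40070 CPM in PBS, where the members were low. The list of T and NK cell markers was at most 7.36 CPM in any library. Other lists also differed between 36 h and PBS without overlap. The hepatocyte list was at 1076 to 1700 CPM at 36 h and at 2413 to 4269 CPM in PBS, and the sinusoidal endothelial list at 457 to 496 CPM and 548 to 715 CPM. The neutrophil list was at 2.80 to 5.18 CPM at 36 h and at 0.772 to 2.05 CPM in PBS, with Ly6g and Ngp at 0 in both, and it was higher, at 13.6 to 20 CPM, at 12 h, when the members were low. The cholangiocyte list was at 0.246 to 0.543 CPM at 36 h and at 0.769 to 1.34 CPM in PBS, with Cldn4 at 0 in both. The part of these lists in the rise was not tested.

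**Figure D1:**
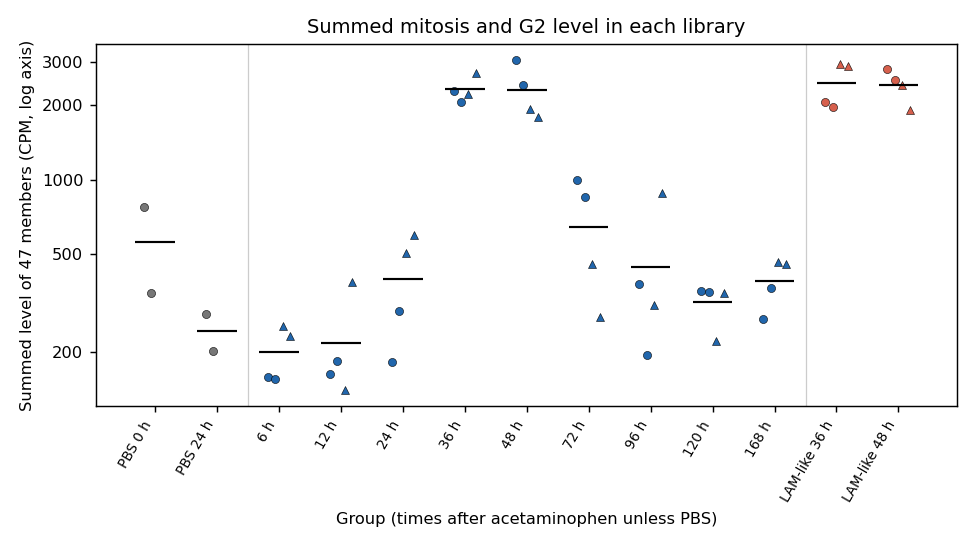
Summed level of the 47 members in each library, in CPM on a log axis, by group. Circles are replicates 1 and 2, triangles replicates 3 and 4, bars the group mean, with grey for PBS, blue for KCs and red for LAM-like KCs. The libraries of 36 and 48 h sit between 1796 and 3043 CPM, and the next highest is the 72 h library at 996 CPM.

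At 36 h, 46 of 47 members were higher in KCs than in PBS (edgeR, adjusted p below 0.05), where 15.8% of all 17080 tested genes were called higher. The median log2 fold change of the members was 3.03, against 0.02 over all tested genes. All 10 cyclins, kinases and their regulators rose. Cdk1, the mitotic kinase, was at 33.7 and 15.8 CPM in PBS 0 h and 18.5 and 14.5 CPM in PBS 24 h, and at 126, 116, 142 and 169 CPM at 36 h. The groups did not overlap, and the log2 fold change was 2.77 ± 0.36 (SE, adjusted p = 2.54e-07). Ccna2, which encodes cyclin A2, was at 23.4, 6.38, 5.56 and 3.59 CPM in the PBS libraries and at 84.4, 70.4, 75.6 and 88.6 CPM at 36 h (log2 fold change 3.27 ± 0.62, adjusted p = 0.000109). Ccnb1, which encodes cyclin B1, went from 15.1, 4.53, 0.293 and 1.23 CPM to 34.4, 33.9, 47.1 and 51.7 CPM (3.93 ± 0.69, adjusted p = 3.96e-05). In each of these genes the first PBS 0 h library was the highest of the controls. The polo kinase gene Plk1 rose by 3.53 (adjusted p = 4.28e-05), the kinase gene Aurka, needed for spindle poles, by 2.28 (adjusted p = 2.37e-05), and Foxm1, the transcription factor of the late cell cycle, by 3.61 (adjusted p = 0.00034). Ccnb2, which encodes cyclin B2, had the smallest rise among the cyclins, 1.60 ± 0.57 (adjusted p = 0.0344). It was at 22.9, 7.67, 3.47 and 1.85 CPM in PBS and at 14.7, 17.8, 18.5 and 26.5 CPM at 36 h, so the groups overlapped.

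The genes that act on chromosomes rose at 36 h as well. Top2a, the enzyme that untangles DNA, was at 58.3, 13.8, 18.8 and 9.69 CPM in PBS and at 221, 185, 190 and 224 CPM at 36 h (log2 fold change 3.17 ± 0.63, adjusted p = 0.000191). Mki67, which coats mitotic chromosomes and is the usual marker of dividing cells, was at 29.3, 17.5, 22.8 and 11.8 CPM in PBS and at 104, 102, 87.8 and 103 CPM at 36 h (2.30 ± 0.39, adjusted p = 2.09e-05). All 3 members of the chromosomal passenger complex rose. Aurkb, its kinase, went from 20.9, 7.82, 10.2 and 9.64 CPM to 88.2, 84.3, 82.1 and 96.4 CPM (2.88 ± 0.46, adjusted p = 7.99e-06), and Birc5, which encodes survivin, rose by 3.33 (adjusted p = 2.04e-05). Of 11 kinetochore and checkpoint genes, 10 rose, such as the checkpoint kinase gene Bub1 by 3.94 (adjusted p = 1.75e-05) and Mad2l1 by 2.74 (adjusted p = 6.92e-07). The exception was Cenpa, the histone variant that marks centromeres. It was at 28.2, 20, 12.2 and 12 CPM in PBS and at 20.4, 25.5, 26.7 and 44 CPM at 36 h, ranges that overlap (0.77 ± 0.37, adjusted p = 0.129).

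All 11 spindle and motor genes and all 6 cytokinesis genes rose at 36 h. Among them Kif11, the motor that pushes spindle poles apart, rose by 3.21 (adjusted p = 0.000519) and Kif20a, a motor of the central spindle, by 2.49 (adjusted p = 1.68e-05). Kif23, which acts in the same structure, had the smallest called rise, 1.17 (adjusted p = 0.000654), from 85.2, 49.7, 52.3 and 44 CPM in PBS to 124, 133, 110 and 146 CPM. Cdc20 and Ube2c, which act in ubiquitin-dependent exit from mitosis, rose too, Ube2c by 3.38 (adjusted p = 0.000185) and Cdc20 by 2.05 (adjusted p = 0.000917). Cdca3, placed in the same role group here, also rose. Within set 1, 45 members were called higher at 36 h, and within set 2, 38. With PBS 0 h alone as the control, 29 were called.

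At 48 h, 45 members were higher than in PBS, against 2.46% of all tested genes, with a median log2 fold change of 3.06. The largest were in Aspm, a spindle pole gene (5.78 ± 1.17, adjusted p = 0.00229), and Pimreg, a mitotic regulator (5.11 ± 0.83, adjusted p = 0.000203). Aspm was at 3.9, 1.96, 0.0488 and 0 CPM in PBS and at 23.8, 21.2, 10.5 and 10.6 CPM at 48 h, so its fold rests on very few counts in the PBS 24 h libraries. Those not called were Pbk (2.27 ± 0.73, adjusted p = 0.0757) and Ttk (2.13 ± 0.74, adjusted p = 0.103), both of them kinase genes. The smallest called changes were those of Kif23 (1.32 ± 0.26, adjusted p = 0.00174) and Mad2l1 (1.74 ± 0.37, adjusted p = 0.00343). Replicates 1 and 2 were the highest at 48 h in Mki67 and Ccna2. Mki67 was at 167, 121, 81.3 and 72.8 CPM and Ccna2 at 94.9, 76.2, 47.2 and 51.7 CPM. Within set 1, 46 members were called at 48 h, and within set 2, 5, and with PBS 0 h alone as the control, 4 were called.

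Against the same PBS libraries, all 47 members were higher in LAM-like KCs at 36 h (20.3% of all tested genes) and all 47 at 48 h (11.2% of all tested genes), with median log2 fold changes of 3.16 and 3.06. These comparisons and those of KCs share the PBS libraries. Cenpa had an adjusted p of 0.0443 in LAM-like KCs at 36 h (log2 fold change 0.94 ± 0.37), and at 16, 32.5, 40.8 and 42.2 CPM its libraries overlapped those of PBS. Within set 2 alone, 44 members were called at 36 h and 28 at 48 h, and within set 1, 46 and 47. With PBS 0 h alone as the control, 26 were called at 48 h.

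The members did not share 1 peak. In KCs the highest mean fell at 36 h for 21 members and at 48 h for 26, and at no other time. The order of the log2 ratio of 48 h to 36 h ran from Pbk (-1.61), Spc25 (-1.09), Mad2l1 (-1.0), Cdk1 (-1.0) and Aurkb (-0.95) at the early end to Kif20a (0.97), Cdc25c (0.98), Aspm (1.04), Knstrn (1.22), Cdc20 (1.38), Cenpa (1.56) and Ccnb2 (2.24) at the late end. Between them stood Ccna2 (-0.24), Mki67 (0.16), Ccnb1 (0.54) and Plk1 (0.57), whose libraries of 36 and 48 h overlapped. Neighbours in this order mostly differed by less than their standard errors, and 43 of the 47 changes did not pass the test.

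**Figure D2:**
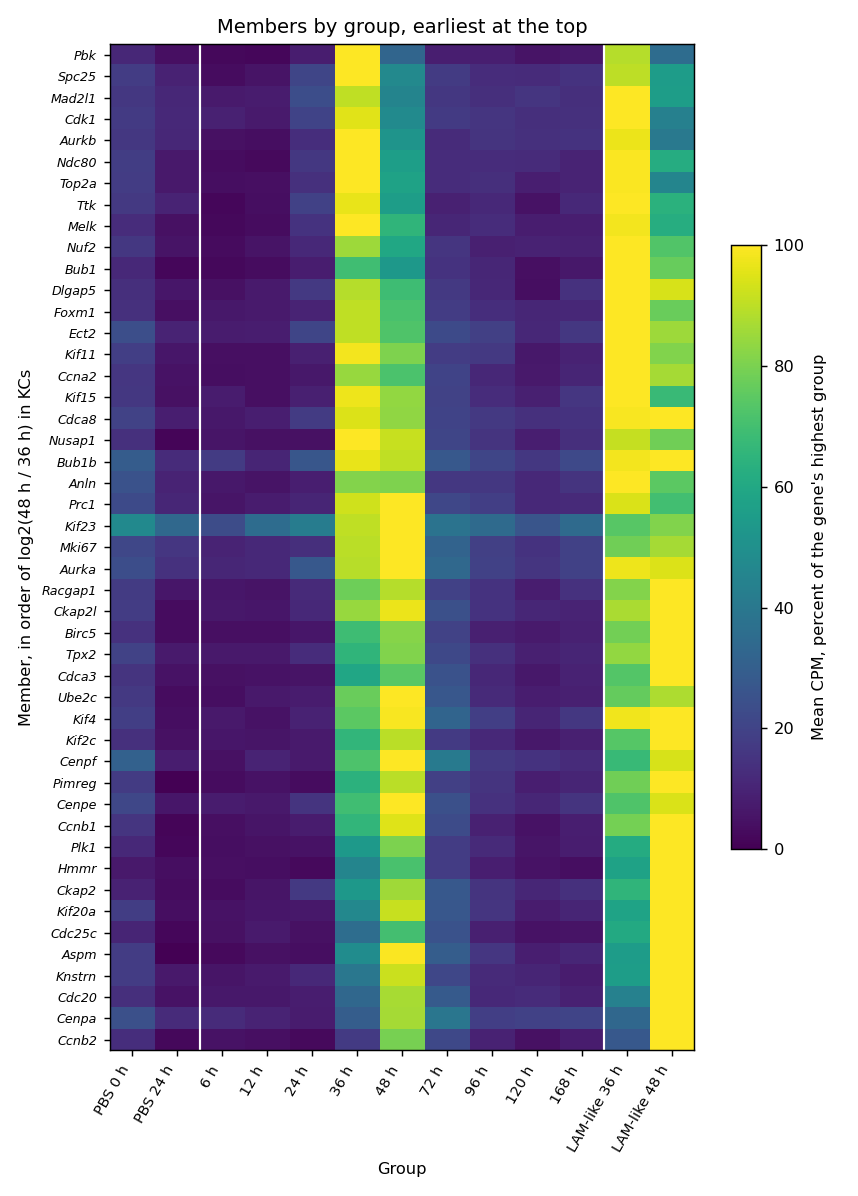
Mean CPM of each member in each group, as percent of the gene's highest group mean, with members ordered by the log2 ratio of 48 h to 36 h in KCs. The top rows, such as Pbk, Spc25 and Cdk1, are brightest at 36 h in both populations, and the bottom rows, such as Cdc20, Cenpa and Ccnb2, at 48 h.

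From 36 to 48 h in KCs, 3 members rose (3.97% of all tested genes were called higher) and 1 fell (8.74% were called lower). Ccnb2 was at 14.7, 17.8, 18.5 and 26.5 CPM at 36 h and at 112, 89, 103 and 63.5 CPM at 48 h. No library of 48 h was below any of 36 h, and the log2 change was 2.24 ± 0.56 (SE, adjusted p = 0.00525). Cenpa rose from 20.4, 25.5, 26.7 and 44 CPM to 96.9, 70.9, 94.6 and 80.5 CPM (1.56 ± 0.37, adjusted p = 0.00356). Cdc20 rose from 22.5, 19.5, 18.1 and 25.1 CPM to 74.3, 60.6, 49.4 and 38.2 CPM (1.38 ± 0.45, adjusted p = 0.0334). Both were also apart in every library. Cdk1 fell from 126, 116, 142 and 169 CPM to 89.9, 73, 52.1 and 61.7 CPM (-1.0 ± 0.34, adjusted p = 0.0453). Of its partner cyclins Ccnb2 rose, while the changes of Ccna2 (-0.24 ± 0.56, adjusted p = 0.857) and Ccnb1 (0.54 ± 0.58, adjusted p = 0.633) were not called.

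Over all alternatives and single libraries left out, the adjusted p of this change ran from 7.04e-05 to 0.0219 for Ccnb2 and from 0.000292 to 0.0263 for Cenpa, below the threshold throughout. It ran from 0.000799 to 0.129 for Cdc20 and from 0.00278 to 0.26 for Cdk1. Without the 36 h replicate 1, 3 or 4 or the 48 h replicate 2, 2 members were called, and both rose. In a fit on the compared groups alone, 8 members were called higher and 7 lower. Set 1 alone gave 3 rises, and set 2 alone 3 rises and 4 falls.

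In LAM-like KCs, measured in libraries of their own, the same step found 2 members higher (5.56% of all tested genes) and 2 lower (8.68%). Ccnb2 rose from 15, 29.8, 37.8 and 45 CPM to 124, 107, 134 and 95.1 CPM (1.85 ± 0.55, adjusted p = 0.0182). Cenpa rose from 16, 32.5, 40.8 and 42.2 CPM to 110, 83, 108 and 95.1 CPM (1.59 ± 0.37, adjusted p = 0.00255). In both genes every library of 48 h was above every one of 36 h. Cdk1 fell from 116, 102, 180 and 182 CPM to 68, 69.4, 68.8 and 46.5 CPM (-1.20 ± 0.34, adjusted p = 0.013). Aurkb fell from 77.4, 63.6, 94.3 and 105 CPM to 39.4, 33.6, 39.3 and 30.1 CPM (-1.26 ± 0.43, adjusted p = 0.0426). The value of Aurkb in KCs was -0.95 ± 0.43 (adjusted p = 0.152), and that of Cdc20 in LAM-like KCs 1.19 ± 0.44 (adjusted p = 0.067). Over all alternatives the adjusted p ran from 0.0023 to 0.0701 for Ccnb2, from 0.000166 to 0.0211 for Cenpa, from 0.00397 to 0.218 for Cdk1 and from 0.00137 to 0.129 for Aurkb. Without LAM-like replicate 1, 3 or 4 of 36 h or replicate 4 of 48 h, 2 members were called. In a fit on the compared groups alone, 8 were called higher and 6 lower. Set 1 alone gave 3 rises, and set 2 alone 2 rises and 5 falls.

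**Figure D3:**
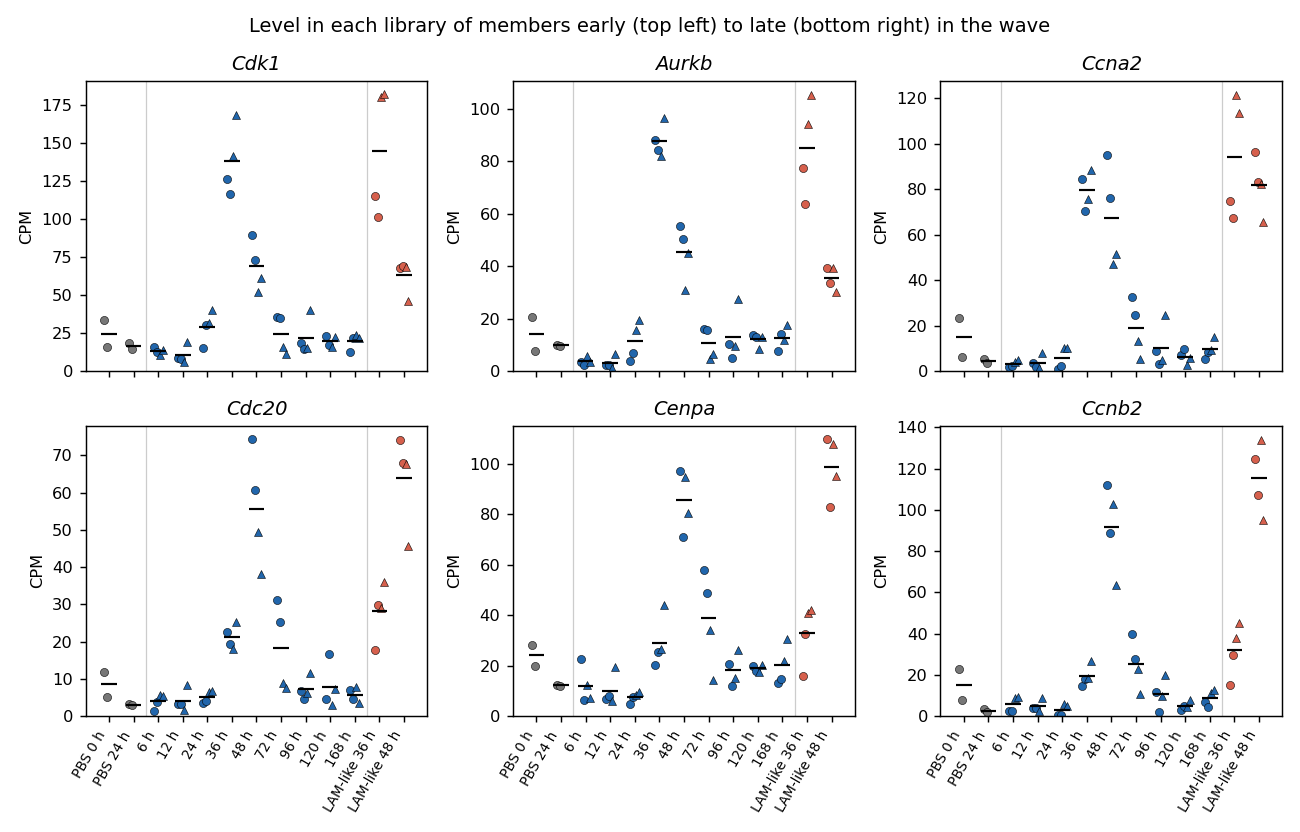
CPM of 6 members in each library by group, from the early Cdk1 and Aurkb over Ccna2 to the late Cdc20, Cenpa and Ccnb2. Circles are replicates 1 and 2, triangles replicates 3 and 4, bars the group mean, with grey for PBS, blue for KCs and red for LAM-like KCs. Cdk1 and Aurkb are highest at 36 h, and Cdc20, Cenpa and Ccnb2 at 48 h, in both populations.

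Across the 47 members, the log2 change from 36 to 48 h in KCs and in LAM-like KCs had a Pearson correlation of 0.963, and 91.5% of members had the same sign. Over all 17080 tested genes the correlation was 0.286, and 74% had the same sign. Both are across genes, which are not independent replicates, and are given as a description. Libraries of both populations that share a time and a number also had correlated deviations from their group means. Every library of 48 h lay above every one of 36 h in both populations for 5 members, Knstrn, Cdc20, Cenpa, Ccnb2 and Kif20a (3.49% of all tested genes). Every library lay below in both for 6 members, Cdk1, Pbk, Ttk, Aurkb, Top2a and Ndc80 (7.6% of all tested genes). Of these, Knstrn, a kinetochore and spindle protein gene, was at 17.6, 15.2, 18.7 and 22.6 CPM in KCs at 36 h and at 53.8, 38.3, 44.6 and 35.9 CPM at 48 h. Pbk was at 58.5, 48, 76.7 and 87 CPM and then at 29.6, 20.4, 16.4 and 21.8 CPM.

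**Figure D4:**
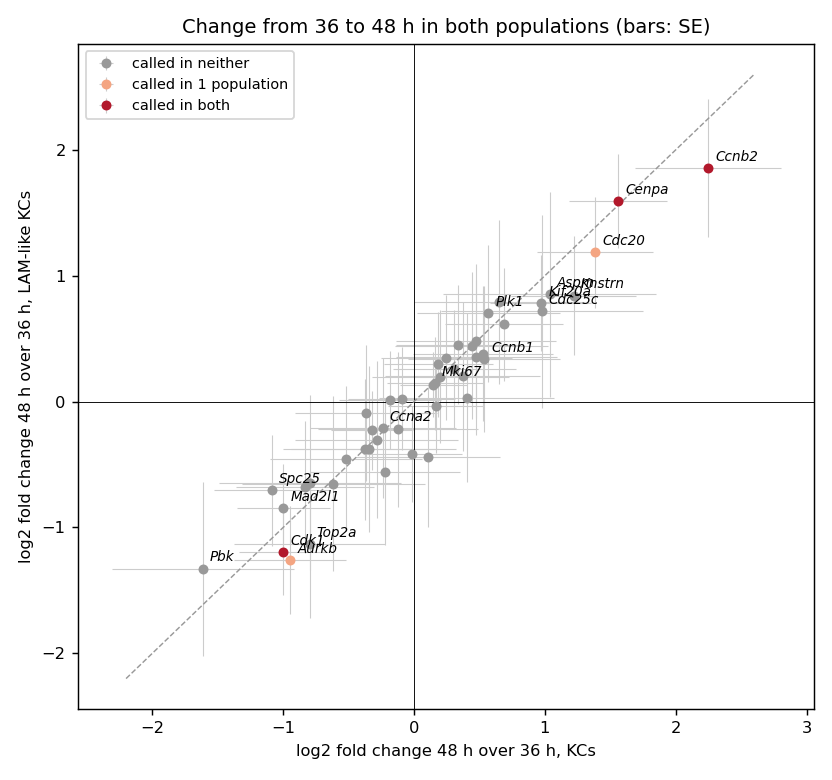
Log2 fold change from 36 to 48 h of each member in KCs (x axis) and LAM-like KCs (y axis), with standard errors as bars and equal change as the dashed line. Red points were called in both populations (Ccnb2, Cenpa and Cdk1), orange points in 1 (Cdc20 and Aurkb), and grey points in neither.

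The ratio of Ccnb2 to Cdk1 within a library sets the member with the largest rise beside one that fell, and does not describe the 43 members that were not called. It was 0.116, 0.153, 0.130 and 0.157 in KCs at 36 h and 1.24, 1.22, 1.97 and 1.03 at 48 h, and in LAM-like KCs 0.130, 0.293, 0.210 and 0.247 at 36 h and 1.83, 1.55, 1.95 and 2.04 at 48 h. The times did not overlap in either population. At 72 h, with both genes lower, the ratio in KCs was still 1.11, 0.790, 1.43 and 0.951. In PBS it was 0.679 and 0.484 at 0 h and 0.187 and 0.128 at 24 h. The ratio of Ccnb1 to Ccna2, neither of which was called, moved less. It was 0.407, 0.481, 0.623 and 0.584 in KCs at 36 h and 0.856, 0.837, 1.19 and 0.797 at 48 h, and its medians in LAM-like KCs were 0.518 and 0.765. The genes of both ratios were picked after their values were seen, and the ratios are given with no test.

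By role, the highest mean in KCs fell at 48 h for Cdc20, Ube2c and Cdca3, grouped here under ubiquitin-dependent exit. It fell at 48 h as well for 7 of 11 spindle and motor genes and for 4 of 6 cytokinesis genes. It fell at 36 h for 7 of 11 kinetochore and checkpoint genes. The kinetochore genes were split: the outer kinetochore genes Ndc80, Nuf2 and Spc25 and the checkpoint genes Bub1, Ttk and Mad2l1 stood at 36 h, while Cenpa, Cenpe, Cenpf and Knstrn stood at 48 h. The cyclins and kinases divided evenly, with Cdk1, Ccna2, Foxm1, Melk and Pbk at 36 h and Ccnb1, Ccnb2, Plk1, Aurka and Cdc25c at 48 h. Per kilobase of exon, the highest mean levels in KCs at 36 h were those of Pbk (37.7 CPM per kb), Aurkb (29.8), Cdk1 (28) and Top2a (22.7). At 48 h they were those of Ccnb2 (59.9 CPM per kb), Cdc20 (29.8), Birc5 (24.7) and Ube2c (21.1). Exon lengths cover all annotated isoforms of a gene, so the ranking is approximate.

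LAM-like KCs and KCs of the same time did not differ in these genes past the threshold. At 36 h 0 of 47 members were called (1.89% of all tested genes), and at 48 h also 0 (2.51%). At an unadjusted p below 0.05 the count was 0 at both times, where 2037 and 2376 of 17080 tested genes differed. DESeq2 called 0 members. The median log2 difference, LAM-like minus KC, was 0.14 at 36 h, with members between -0.29 (Kif23) and 0.77 (Cdc25c), and 0.15 at 48 h, between -0.52 (Prc1) and 0.53 (Bub1). Cdc25c, the phosphatase that activates CDK1, was at 4.54, 5.72, 8.36 and 8.76 CPM in LAM-like KCs at 36 h and at 2.59, 2.91, 5.52 and 4.97 CPM in KCs, with overlap (0.77 ± 0.77, adjusted p = 0.783). The standard errors of these differences, from 0.26 for Kif23 to 0.81 for Aspm at 36 h, are as large as many of the differences, and a missed threshold does not show that the populations are alike. Tpx2, a spindle assembly factor, was the single member whose libraries did not overlap at 36 h, at 59.5, 60.7, 72.0 and 74.5 CPM in LAM-like KCs and 50.7, 53.4, 53.7 and 51.3 CPM in KCs. Of all tested genes, 4.8% were higher in that way. Between LAM-like and KC libraries of the same number, 11 members were higher in every pair at 36 h (14.9% of all tested genes) and 0 were lower (15.4%). At 48 h, 14 were higher in every pair (14.1%) and 2, Kif23 and Prc1, were lower (14.9%). At both times Bub1, Ccnb2, Cdc25c, Dlgap5, Nuf2 and Tpx2 were higher in every pair, 6 members against 6.15% of all tested genes, and 0 were lower in every pair (6.84%). Bub1 was at 50.6, 48.7, 75.8 and 77.8 CPM in LAM-like KCs at 36 h and at 44.8, 33.2, 42.5 and 54.5 CPM in KCs. With the number as a block, edgeR still called 0 members at either time. The change of the difference between 36 and 48 h was called for 0 members (0.00585% of all tested genes), and for 0 in DESeq2. At an unadjusted p below 0.05 the count was also 0, against 592 of 17080 tested genes. Marker lists did differ: at 36 h the Kupffer cell list was at 18780 to 21170 CPM in LAM-like KCs and 26627 to 27782 CPM in KCs. The monocyte list was at 18.4 to 51.8 CPM and 174 to 312 CPM, with Fcnb at 0 in both, and the hepatocyte list at 445 to 964 CPM and 1076 to 1700 CPM. The erythroid list was at 239 to 473 CPM and 134 to 193 CPM. The sinusoidal endothelial list was at 309 to 412 CPM and 457 to 496 CPM, and the stellate list at 6.18 to 25.9 CPM and 39.9 to 55.2 CPM. The cholangiocyte list, at 0 to 0.229 CPM and 0.246 to 0.543 CPM, was also apart. The T and NK cell, B and plasma cell and neutrophil lists overlapped at 36 h. At 48 h the neutrophil list was apart, at 7.92 to 13.1 CPM in LAM-like KCs and 3.09 to 5.2 CPM in KCs, with Ly6g and Ngp at 0 in both. So was the monocyte list, at 26.2 to 81.3 CPM and 175 to 366 CPM, with Fcnb at 0 in both. The other lists overlapped at 48 h. The part of these lists in the comparison was not tested.

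The rise itself took place between 24 and 36 h. All 47 members were higher in KCs at 36 h than at 24 h (4.03% of all tested genes), with a median log2 change of 2.89. The largest changes were in Nusap1, a spindle microtubule binder (4.45 ± 0.73, adjusted p = 0.000122), and Pimreg (4.30 ± 0.74, adjusted p = 0.000214), and the smallest was in Kif23 (1.1 ± 0.26, adjusted p = 0.00516). Within set 1, 45 members were called, and within set 2, 26. In set 2 the 24 h libraries were the higher ones, with summed levels of 507 and 599 CPM against 183 and 294 CPM in set 1.

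Before the rise the members were low. At 6 h, 7 members were lower than in PBS (5.42% of all tested genes were called lower), Spc25 (-1.97 ± 0.50, adjusted p = 0.00547), Aurkb (-1.59, adjusted p = 0.0163), Ttk (-2.76, adjusted p = 0.0253), Anln (-1.28, adjusted p = 0.0292), Ect2 (-1.03, adjusted p = 0.0317), Kif23 (-0.78, adjusted p = 0.0369) and Ndc80 (-1.69, adjusted p = 0.0484). Anln and Ect2 act in the cleavage furrow. The summed level was 159, 156, 257 and 234 CPM at 6 h, which overlaps PBS 24 h but not PBS 0 h. At 12 h, 5 were lower (8.09% of all tested genes), Aurkb, Anln, Ndc80, Ect2 and Spc25. With PBS 0 h alone as the control, 13 and 11 members were called lower at 6 and 12 h, and with PBS 24 h alone, 0. Without PBS 0 h replicate 1, whose summed level is the highest of the controls, 0 were called at 6 h and 2 at 12 h. Without 6 h replicate 1, 1 was called, without 6 h replicate 2 or PBS 24 h replicate 1, 2, and at 12 h the count was 14 without replicate 4 and 2 without any other 12 h replicate or without PBS 24 h replicate 1. Within set 1, 8 were called lower at each time, and within set 2, 6 at 6 h. Set 2 holds 1 library of 12 h, whose spread had to be taken from the other groups, and its 0 calls there say little.

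At 24 h, Ckap2, a microtubule-binding spindle gene, was higher than in PBS (1.59 ± 0.50, adjusted p = 0.0144; 16% of all tested genes were called higher), and Cenpa was lower (-1.19 ± 0.39, adjusted p = 0.0189; 10.9% were called lower). Ckap2 was at 3.38, 1.59, 1.02 and 0.615 CPM in PBS and at 1.72, 4.45, 4.68 and 6.49 CPM at 24 h, so the groups overlapped. Cenpa was at 4.83, 7.43, 8.21 and 9.53 CPM at 24 h, below every PBS library. Neither call held throughout. That of Ckap2 was lost without 24 h replicate 4, PBS 24 h replicate 2 or PBS 0 h replicate 2 (adjusted p from 0.0562 to 0.0815), and that of Cenpa without 24 h replicate 1 or PBS 0 h replicate 1 (0.076 and 0.0662). The direction of the calls followed the control. With PBS 0 h alone, 0 members were called higher and 6 lower, and with PBS 24 h alone, 2 higher and 0 lower. Set 1 alone gave 2 rises and 5 falls, and set 2 alone 1 of each.

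Replication genes, a list of 40 that act in S phase, were ahead of the members. At 24 h, 32 of the 40 were called higher than in PBS (16% of all tested genes). The median log2 fold change of the list was 1.45, against a median of 0.17 over the 47 members. The largest changes among the replication genes were in Orc1, which marks origins of replication (2.13, adjusted p = 0.0137), and Mcm2, part of the replicative helicase (2.11, adjusted p = 0.000234). At 36 h all 40 were higher (15.8% of all tested genes), with a median of 2.80. They were led by Rrm2, a subunit of the enzyme that makes deoxynucleotides (4.26, adjusted p = 1.54e-05). All 40 had their highest mean at 36 h. From 36 to 48 h, 38 of them fell in KCs (median -1.96) and 38 in LAM-like KCs (median -1.71), where 8.74% and 8.68% of all tested genes were called lower. Among those that fell was the origin licensing factor gene Cdc6 (-2.60, adjusted p = 0.000492, and -2.59, adjusted p = 0.000454). Over the same step the median of the 47 members was 0.16 in KCs and 0.03 in LAM-like KCs. At 48 h, 5 replication genes were still higher than in PBS (2.46% of all tested genes), Pcna, Tyms, Rfc5, Rrm1 and Tk1.

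**Figure D5:**
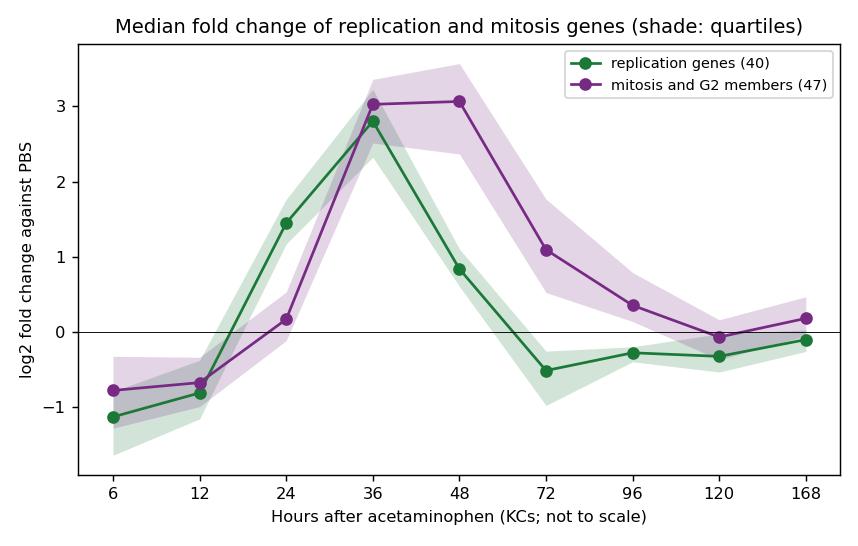
Median log2 fold change against PBS of 40 replication genes (green) and the 47 members (purple) in KCs at each time after APAP, with the shade from the lower to the upper quartile of genes. The replication genes are at 1.45 at 24 h, when the members are at 0.17, and at 0.84 at 48 h, when the members are at 3.06.

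A further list of 50 mitotic genes held 45 that were higher and 1 that was lower at 36 h, and 38 that were higher at 48 h, with medians of 2.93 and 2.49. The shares of all tested genes called higher were 15.8% at 36 h and 2.46% at 48 h. The motor gene Kif14 had the largest change at both times (5.66, adjusted p = 0.001, and 5.68, adjusted p = 0.00766). The highest mean of these genes fell at 36 h for 35, at 48 h for 14 and at 120 h for 1. The gene that was lower at 36 h was Pttg1, which encodes securin, the guard of sister chromatid separation (-0.51 ± 0.12, adjusted p = 0.000976). From 36 to 48 h in KCs, Pttg1 was also the 1 that rose (0.54 ± 0.12, adjusted p = 0.00129). Over that step 5 fell, Cks1b, Cdca5, Incenp, the centromere gene Cenpk (-2.13, adjusted p = 0.00687) and the checkpoint gene Trip13 (-1.58, adjusted p = 0.0174). These counts out of 50 are not far from the shares over all tested genes, 3.97% called higher and 8.74% called lower.

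A list of 14 genes held inhibitors of steps or enzymes of the cell cycle, not all of them specific to G2 or mitosis. At 6 h 3 were higher (Cdkn1a, Btg2 and Gadd45a) and 2 lower (Fbxo5 and Ccng1) than in PBS, where 5.42% of all tested genes were called lower. At an unadjusted p below 0.05, 9 of the 14 and 4895 of all 17080 tested genes differed in either direction. Cdkn1a, which encodes the CDK inhibitor p21, had the largest change (4.24, adjusted p = 8.61e-05), ahead of the antiproliferative gene Btg2 (2.15, adjusted p = 0.0118). Cdkn1a was also higher at 12 h (2.62, adjusted p = 0.0047), 24 h (2.12, adjusted p = 0.0157) and 72 h (2.56, adjusted p = 0.039). In LAM-like KCs it was higher than in PBS at 36 h (2.6, adjusted p = 0.00232) and 48 h (2.2, adjusted p = 0.0158). At 24 h Wee1, a kinase that inhibits CDK1, was higher as well (1.88, adjusted p = 0.00454). The cyclin G2 gene Ccng2 (-1.53, adjusted p = 0.000507) and Cdkn1b, which encodes the CDK inhibitor p27 (-1.26, adjusted p = 0.000397), were lower. Of the 14, 2 were thus called higher and 2 lower at 24 h, near the shares over all tested genes (16% higher and 10.9% lower). At 36 h, 8 of the 14 and 6223 of 17080 tested genes differed from PBS in either direction at an unadjusted p below 0.05. Past the adjusted threshold 5 of the list were higher (15.8% of all tested genes), Cdkn1a, Cdkn2c and Wee1 among them, and Gadd45g was lower. The largest rises were those of Pkmyt1, the other kinase of this kind (3.18, adjusted p = 2.55e-06), and Fbxo5, an inhibitor of the anaphase-promoting complex (2.41, adjusted p = 8.77e-06). From 36 to 48 h in KCs 3 fell, Pkmyt1 by 1.76 (adjusted p = 0.00549), Wee1 by 1.75 (adjusted p = 0.0152) and Fbxo5 by 1.19 (adjusted p = 0.0272), and Ccng2 rose by 1.24 (adjusted p = 0.00709). Over this step 8.74% of all tested genes were called lower and 3.97% higher. In LAM-like KCs the same 3 fell, Wee1 by 1.81 (adjusted p = 0.01), Fbxo5 by 1.58 (adjusted p = 0.00271) and Pkmyt1 by 1.43 (adjusted p = 0.0227). There Ccng2 rose by 1.22 (adjusted p = 0.00719) and the antiproliferative gene Btg1 by 0.99 (adjusted p = 0.0422). In this population 8.68% of all tested genes were called lower over the step and 5.56% higher.

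From 48 to 72 h all 47 members had a lower mean in KCs, and 33 fell past the threshold (1.73% of all tested genes were called lower), with a median log2 change of -1.96. For 45 members every library of 72 h lay below every one of 48 h (3.81% of all tested genes). Kif23 fell by 1.40 (adjusted p = 0.00172), from 174, 159, 125 and 110 CPM to 53.3, 56.4, 44.4 and 61.5 CPM. Aurkb fell by 2.08 (adjusted p = 0.00552), from 55.3, 50.6, 30.9 and 45.2 CPM to 16.1, 15.6, 4.81 and 6.72 CPM. Mki67 fell by 1.66 (adjusted p = 0.00795) to 49.9, 51.6, 23.7 and 15.1 CPM. Among the 14 not called, Cenpa had a change of -1.15 ± 0.37 (adjusted p = 0.0674) and Cenpf, a large kinetochore protein gene, one of -1.29 ± 0.62 (adjusted p = 0.271). The count was 1 in a fit on the compared groups alone. It was 12 and 15 without 48 h replicate 1 or 2, and 19, 17 and 16 without 72 h replicate 2, 3 or 4. Within set 1, 27 members were called, and within set 2, 30.

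At 72 h, 4 members were still higher than in PBS (1.51% of all tested genes), Ckap2 (2.31 ± 0.50, adjusted p = 0.01), Kif20a (1.71 ± 0.41, adjusted p = 0.021), Cdc20 (1.82 ± 0.47, adjusted p = 0.0328) and Ccnb1 (2.41 ± 0.67, adjusted p = 0.0496). All 4 had their highest mean at 48 h. Cdc20 was at 31.1, 25.2, 8.83 and 7.55 CPM at 72 h, where replicates 1 and 2 were above every PBS library and replicates 3 and 4 were within their range. The larger values of Aspm (4.02 ± 1.18, adjusted p = 0.0643) and Pimreg (2.86 ± 0.83, adjusted p = 0.0591) did not pass, and the smallest were those of Ttk (-0.49 ± 0.74, adjusted p = 0.802) and Aurkb (-0.14 ± 0.44, adjusted p = 0.923). Within set 1, 37 members were called at 72 h, and within set 2, 0, where the log2 fold changes of Cdc20 (-0.05), Ccnb1 (-0.50) and Kif20a (-0.10) turned negative. Without 72 h replicate 1, PBS 24 h replicate 2 or PBS 0 h replicate 2 the count was 0, and without 72 h replicate 4 it was 12. It was 2 without 72 h replicate 2 or PBS 24 h replicate 1, and DESeq2 called 12. The 72 h libraries with more of the members also held more hepatocyte RNA: the hepatocyte list summed to 6416 and 20560 CPM in replicates 1 and 2 and to 1282 and 1072 CPM in replicates 3 and 4. Their Kupffer cell list was lower, at 31888 and 25970 CPM against 43141 and 38333 CPM. The part of other cells in this difference was not tested.

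No member differed from PBS past the threshold at 96, 120 or 168 h, where edgeR and DESeq2 both called 0. Of all tested genes, 0.158%, 0.123% and 0.0351% were called. At an unadjusted p below 0.05, 6, 3 and 4 members differed, where 1105, 1339 and 857 of all 17080 tested genes did. The median log2 fold change was 0.35 at 96 h, -0.07 at 120 h and 0.18 at 168 h. The summed level was 377, 195, 310 and 885 CPM at 96 h, 354, 351, 222 and 349 CPM at 120 h and 274, 365, 463 and 456 CPM at 168 h. Replicate 4 of 96 h was the highest library of its group and lay above every PBS library. From 72 to 96 h 0 members were called (0.0176% of all tested genes), and 0 in DESeq2. At an unadjusted p below 0.05, 9 were lower, where 1903 of 17080 tested genes differed in either direction. At the adjusted threshold set 1 alone gave 25 falls and set 2 alone 0.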

How the data were processed

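The deposited files give counts of reads per gene, made by the authors with HISAT2 2.2.0, SAMtools 1.10 and featureCounts 2.0.0 on mm10 after FastQC 0.11.9, per the submitters' processing notes. The annotation, strand setting and handling of duplicate reads are not given in the sources used here.

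Of 54735 genes, 17080 passed filterByExpr, and no library lost more than a trace of its reads (the lowest share kept was 99.94%). Counts were scaled by TMM and fitted over all 48 libraries with edgeR 4.0.16 (glmQLFit, robust, 1 coefficient per group). Tests were 2-sided quasi-likelihood tests, adjusted by Benjamini-Hochberg over all tested genes, and an adjusted p below 0.05 was called. The standard errors given are the absolute log2 change divided by the square root of F from its test, not an output of the fit. The PBS control is the mean of the coefficients of both PBS groups, so a fitted fold can differ from a ratio of CPM means. Non-overlap and peak times were read from CPM. The procedure was tested on simulated counts. The members, the lists and the alternatives were chosen with earlier results of these data known. Every member may be named, with values for those fixed by function or by the largest and smallest changes, and from the other lists the genes with the largest called changes. Others, such as Knstrn, Tpx2 and Nusap1, the ratios of 2 members and the count over pairs of libraries were chosen after their values were seen.

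Samples were grouped by the titles. LAM-like and KC libraries of the same number had correlated deviations from their group means (0.126 to 0.191 at 36 h and 0.189 to 0.350 at 48 h), so the numbers were taken to pair them. Between libraries of different numbers the correlations were -0.156 to 0.126 at 36 h and -0.241 to 0.163 at 48 h. The ranges met at 36 h, so the pairing is less certain there. Software was R 4.3.3, DESeq2 1.42.0, Python 3.11.15 and matplotlib 3.10.9. Promoters came from RefSeq and gene positions and lengths from GENCODE.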

Additional observations from a re-analysis of the deposited data

Results flagged for a closer look

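In groups of 4, the highest or lowest library was compared with the gap to its neighbours. Of 136 such groups, 4 had a library that stood apart, and chance gives about 1 in 20. The summed level of the members in KCs at 120 h had a lowest library of 222 CPM, with the others at 349 to 354 CPM. The lowest Mki67 library of KCs at 36 h was at 87.8 CPM, with the others at 102 to 104 CPM. The lowest Cdk1 library of LAM-like KCs at 48 h was at 46.5 CPM, with the others at 68 to 69.4 CPM. The highest Pimreg library of KCs at 36 h was at 16.1 CPM, with the others at 12.6 to 12.8 CPM.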

How the results depend on the processing

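The counts of members called moved with the control, with the set and with the libraries fitted. With PBS 0 h alone, 29 members were called at 36 h, 4 at 48 h, 0 at 72 h, 13 at 6 h, 11 at 12 h and 6 at 24 h, and 26 in LAM-like KCs at 48 h. With PBS 24 h alone, 7 were called at 72 h and 0 at 6 and 12 h. Set 2 alone gave 5 at 48 h, 0 at 72 h, 0 at 12 h, where it holds 1 library, 28 in LAM-like KCs at 48 h, 26 from 24 to 36 h, and 7 from 36 to 48 h in each population. In set 2 at 72 h the log2 fold changes turned to -0.054 for Cdc20, -0.50 for Ccnb1 and -0.10 for Kif20a. Set 1 alone gave 8 at 12 h, 7 at 24 h, 37 at 72 h, 2 at 120 h and 25 from 72 to 96 h, and the set as a covariate 7 at 72 h. Fitting no more than the groups compared gave 3 at 6 h, 0 at 72 h, 15 and 14 from 36 to 48 h in KCs and LAM-like KCs, and 1 from 48 to 72 h, with fewer libraries to estimate the spread. With no filter the counts were 2 at 6 h, 3 at 12 h, 2 at 72 h, 2 from 36 to 48 h and 19 from 48 to 72 h, and DESeq2 gave 11, 9 and 12 at 6, 12 and 72 h. The replicate block gave 9 at 12 h and 8 at 72 h, where numbers pair no libraries, and changed no call between LAM-like KCs and KCs. The cause of these shifts was not tested. Leaving out single libraries gave 0 to 9 at 6 h, 2 to 14 at 12 h, 1 to 3 at 24 h, 43 to 46 at 36 h, 30 to 45 at 48 h and 0 to 12 at 72 h. It gave 45 to 47 and 42 to 47 in LAM-like KCs at 36 and 48 h, 40 to 46 from 24 to 36 h, 2 to 4 from 36 to 48 h in each population, 12 to 39 from 48 to 72 h, and 22 to 28 members with the highest mean at 48 h. With 4 libraries a group, low-count members such as Aspm and Cdc25c have wide errors.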
